A study of Mus musculus with 4 samples.

Results

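The 10 genes described here encode writers and readers of methylation on lysine 9 of histone H3 (H3K9), a partner of the writer SETDB1, and the corepressor KAP1, which recruits SETDB1. They were chosen by name, as the entries Setdb1, Trim28, Atf7ip, Ehmt1, Ehmt2, Suv39h1, Suv39h2, Cbx1, Cbx3 and Cbx5 of a genome-wide knockout screen. All 10 were found among the 20380 gene entries of the authors' deposited table, with 59 guides between them. The screen used lentiviruses in the lentiCRISPRv2 backbone that deliver Cas9 and 1 guide each, with 130209 guides against 20611 genes per the labels. They were put into E14 cells, an established mouse embryonic stem cell line, grown in serum with LIF. All cells carried a tdTomato reporter of MERVL, an endogenous retrovirus active in the 2-cell embryo. Per the labels, 130000000 cells were transduced for 24 h with polybrene at 4 ug/mL. Cells had been selected with puromycin at 2 ug/mL for 48 h. At day 5, about 500000 reporter-positive cells were sorted, and guides were amplified from genomic DNA of these cells and of total cells. MERVL-positive cells gave 2 libraries and total cells 2, all titled sequencing repeats. No separate cultures are named, so the 2 libraries of a group may be technical repeats only. The deposited p-values would then hold no spread between cultures.

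H3K9 methylation marks silent chromatin and many endogenous retroviruses. KRAB zinc finger proteins bind retroviral DNA and recruit KAP1, the product of Trim28, which brings in the trimethylating enzyme SETDB1 and its stabilising partner ATF7IP. G9a and GLP, the products of Ehmt2 and Ehmt1, work as a pair and give mainly dimethylation, which in embryonic stem cells is known for its part in silencing MERVL. SUV39H1 and SUV39H2 trimethylate H3K9 at repeats such as those near centromeres, and the HP1 proteins encoded by Cbx5, Cbx1 and Cbx3 bind the methylated residue. The screen asks which knockouts switch MERVL on, and a guide against a repressor would then be more frequent among MERVL-positive cells.

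The authors' deposited table gives a single comparison per gene, without library values. Sequencing depth is therefore unknown, and nothing below has a spread between libraries. The group in its numerator is not stated. Log2 fold changes above 0 are taken to mean that guides were more frequent in MERVL-positive cells, a direction that is likely but not settled. The basis is that the study's title ties loss of Ints7 to active MERVL, while Ints7 stands at rank 157 for positive and 18586 for negative change in the authors' deposited table. This basis is weak, since the log2 fold change of Ints7 was only 0.14 and its false discovery rate for positive change 0.931. Of its 6 guides, 3 passed the guide threshold for positive and 1 for negative change. If the numerator is the total cells, all directions given here are turned. About 500000 sorted cells come to 3.84 cells per library guide, and an effect of a knockout can be missed at this number.

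At a false discovery rate of 0.05, the authors' deposited table calls 0 of the 10 genes in either direction, and of all genes it calls 0% for positive and 0.00491% for negative change. The tool named in the submitters' processing notes is MAGeCK, and no other tool could be run without guide counts. At an unadjusted p under 0.05 there were also 0 of the 10 for positive change and 0 for negative change in the authors' deposited table, where 5.02% and 5.07% of all genes passed. At an unadjusted p under 0.10 there was 1 in each direction in the authors' deposited table, Ehmt2 for positive and Cbx3 for negative change, against 9.96% and 10.2% of all genes. Both counts of 1 in 10 were thus near the share of all genes. At an unadjusted p under 0.01 there were 0 in both directions, where 1.07% and 1.12% of all genes passed.

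In the authors' deposited table the log2 fold changes of the 10 genes ran from -1.44 for Cbx3 to 0.60 for Ehmt2, and 7 of 10 were above 0, beside 48% of all genes. Their median was 0.11, and that of all genes was -0.021. The order from the top was Ehmt2, Ehmt1, Cbx1, Atf7ip, Suv39h2, Suv39h1, Cbx5, Trim28, Setdb1 and Cbx3 in the authors' deposited table. Whether neighbours in this order differ cannot be tested without values per library. The central 95% of all genes spanned -1.09 to 0.81, and Cbx3 was the 1 gene of the 10 outside it.

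**Figure D1:**
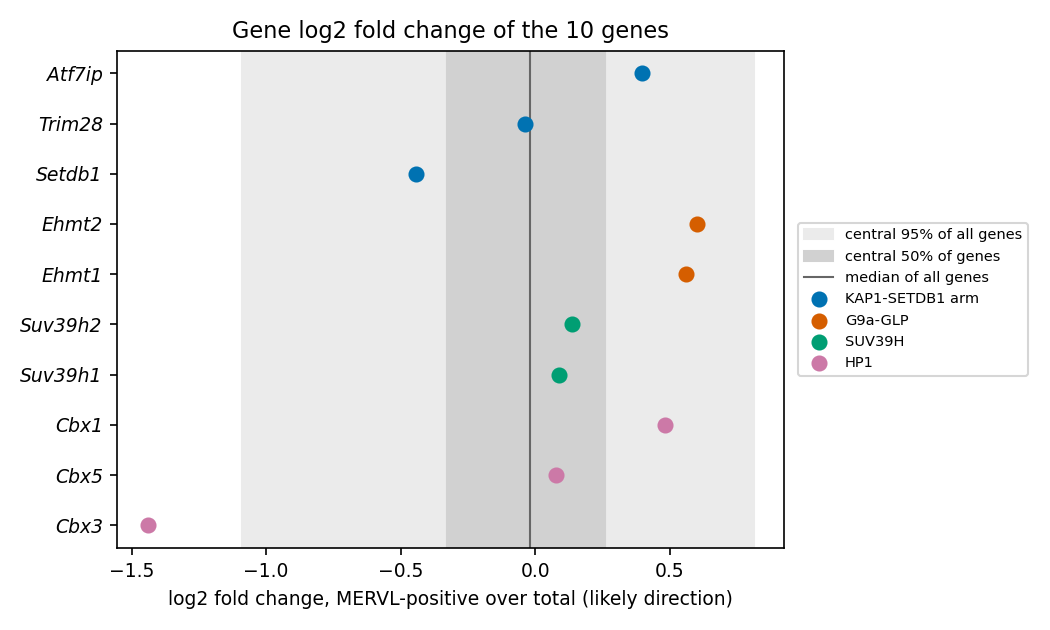
Log2 fold change of each of the 10 genes (x axis, MERVL-positive over total in the likely direction), grouped by role on the y axis, from the authors' deposited table. Each point is 1 gene value with no error available, and the grey bands hold the central 50% and 95% of all genes. Cbx3 lies at -1.44, left of the band that ends at -1.09, and the other 9 genes lie inside it.

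The G9a and GLP pair stood highest. In the authors' deposited table the log2 fold change of Ehmt2 was 0.60, a ratio of 1.52. This gene encodes G9a and lies on chromosome 17 from 34898463 to 34914073 in mm10. For Ehmt1, which encodes GLP and lies on chromosome 2 from 24790769 to 24919643, the authors' deposited table gives 0.56, a ratio of 1.47. Only 1330 genes had a higher value than Ehmt2, and 1590 a higher value than Ehmt1. The paired genes, whose products form 1 enzyme complex, were thus 0.041 apart on the log2 scale, with 1.27% of all genes between them.

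Their guides also had the same balance, since the authors' deposited table counts 5 of 6 up and 1 down for each gene. Up and down mean that a guide passed the authors' guide threshold, which is loose, since 37.4% of the guides of all genes were up and 38.0% down. Among the 16270 genes with 6 guides, 254 had 5 guides up and 1 down, which is 1.56%. This class matches the pair's own counts, so its share is no test. The median enrichment p of the 254 genes was 0.047, while the authors' deposited table gives p = 0.0917 for Ehmt2 and 0.104 for Ehmt1. The p for negative change there was 0.7 for Ehmt2 and 0.515 for Ehmt1, both below the median of 0.83 of the 254 genes. False discovery rates for positive change in the authors' deposited table were 0.99 for Ehmt2 and 0.996 for Ehmt1. Among 200 genes with 6 guides and the nearest log2 fold changes, 73 had a smaller enrichment p than Ehmt2, and for Ehmt1 82 of 200 did. The enrichment p-values of the pair were therefore not unusual for genes with such fold changes, and neither gene passed a threshold of 0.05.

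**Figure D2:**
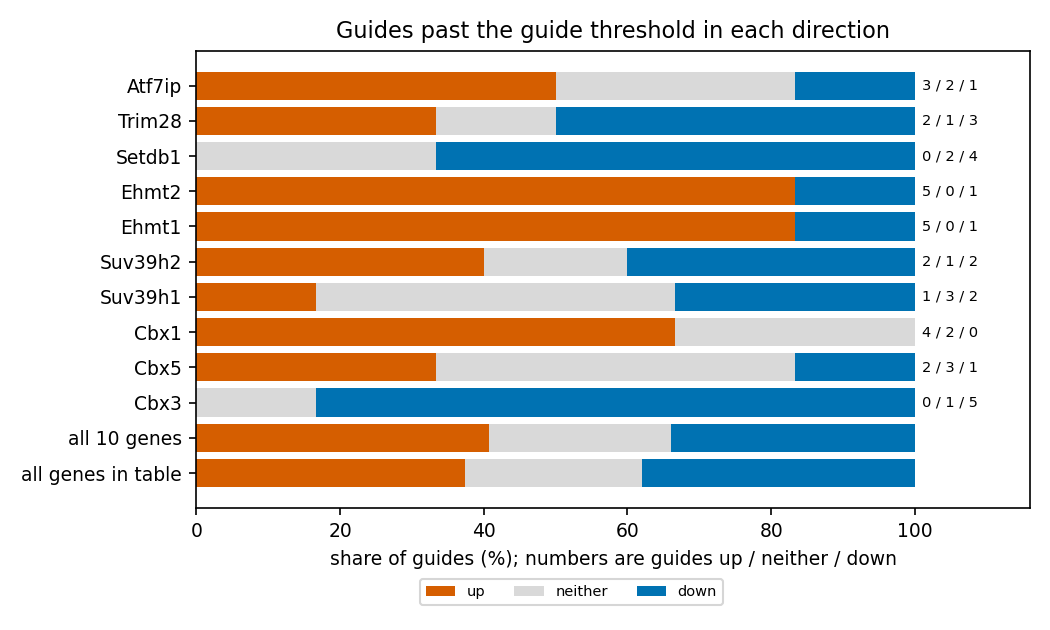
Share of each gene's guides (x axis, in percent) that were up, past the threshold in neither direction, or down, from the authors' deposited table, with the numbers of guides at the right. The lower bars pool the 10 genes and all genes. Ehmt1 and Ehmt2 have 5 of 6 guides up, and Cbx3 has 5 of 6 down and none up.

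The 3 genes of the KAP1 and SETDB1 arm did not lie together. The authors' deposited table puts Atf7ip, on chromosome 6 from 136518789 to 136610850, at a log2 fold change of 0.40, and 3 of its 6 guides were up and 1 was down. Trim28, on chromosome 7 from 13024152 to 13031032, stood close to the middle of all genes at -0.039 in the authors' deposited table, where 2 guides were up and 3 down. Setdb1, on chromosome 3 from 95323525 to 95357202, was at -0.44 per the authors' deposited table, and none of its guides was up while 4 of 6 were down.

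SETDB1 is the enzyme of this arm and ATF7IP its partner, and their genes lay 0.84 apart on the log2 scale, a gap that held 66.1% of all genes and was not tested. In the authors' deposited table the p for positive change was 0.204 for Atf7ip, 0.719 for Trim28 and 0.946 for Setdb1. The p for negative change was 0.91, 0.564 and 0.196 in the same order in the authors' deposited table. No guide up was seen in 962 of the 16270 genes with 6 guides, or 5.91%, and Setdb1 and Cbx3 were among them. This class, too, matches their own counts. For Setdb1, 55 of the 200 genes with the nearest fold changes had a smaller p for negative change, so its p was not unusual for its fold change.

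The SUV39H genes lay near the middle. Suv39h2, on chromosome 2 from 3455815 to 3474986, is the 1 gene of the 10 with 5 guides. The authors' deposited table gives it a log2 fold change of 0.14, p = 0.279 for positive and 0.568 for negative change, and 2 guides up against 2 down. Suv39h1, on chromosome X from 8061171 to 8074760, was at 0.090 in the authors' deposited table, where 1 guide was up and 2 were down.

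For Suv39h1 the measures disagreed on direction. Its log2 fold change was above 0, but its p was 0.931 for positive and 0.451 for negative change in the authors' deposited table. Of the 200 genes with 6 guides and the nearest fold changes, 199 had a smaller p for positive change. Such a disagreement between the sign of the fold change and the smaller p was held by 3941 genes, or 19.3% of all, and by 1 of the 10. Suv39h1 counts among the 7 of 10 above 0 by its fold change alone, and its direction is left unsettled here.

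The HP1 genes spanned the widest range. Cbx1 encodes HP1 beta and lies on chromosome 11 from 96788680 to 96808982, and the authors' deposited table puts it at a log2 fold change of 0.48, where 4 of 6 guides were up and none was down. Cbx5 encodes HP1 alpha and lies on chromosome 15 from 103191546 to 103239904, and it was at 0.077 in the authors' deposited table, where 2 guides were up and 1 was down. Cbx3 encodes HP1 gamma and lies on chromosome 6 from 51470154 to 51483704, and per the authors' deposited table it was at -1.44, where none of its guides was up and 5 of 6 were down. Cbx1 and Cbx3 were thus at opposite ends, 1.92 apart on the log2 scale with 88.0% of all genes between them, a difference that was not tested.

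The value of Cbx3 is a ratio of 0.369, and 174 of all genes had a lower one. In the authors' deposited table its p for negative change was 0.0711 at a false discovery rate of 0.977, so it did not pass. Among the 190 genes with 6 guides and the nearest fold changes, from -3.51 to -1.27, 149 had a smaller p and 130 had a p under 0.05. Its place was therefore lower by fold change than by p, at rank 1518 of 22510 entries for negative change in the authors' deposited table. RefSeq lists 6 pseudogenes named after Cbx3 and none named in this way after the other 9 genes. Guide sequences were not used here, so whether guides against Cbx3 also match these copies was not tested, and its value is uncertain.

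For Cbx1 the p was 0.219 for positive and 0.989 for negative change in the authors' deposited table. Genes with 6 guides of which at least 4 were up and none down numbered 554, or 3.41%, with a median enrichment p of 0.0934. This class matches the counts of Cbx1 itself. For Cbx5 the p was 0.317 for positive and 0.933 for negative change in the authors' deposited table. Without Cbx3 the lowest value of the HP1 genes is that of Cbx5, close to the middle of all genes.

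**Figure D3:**
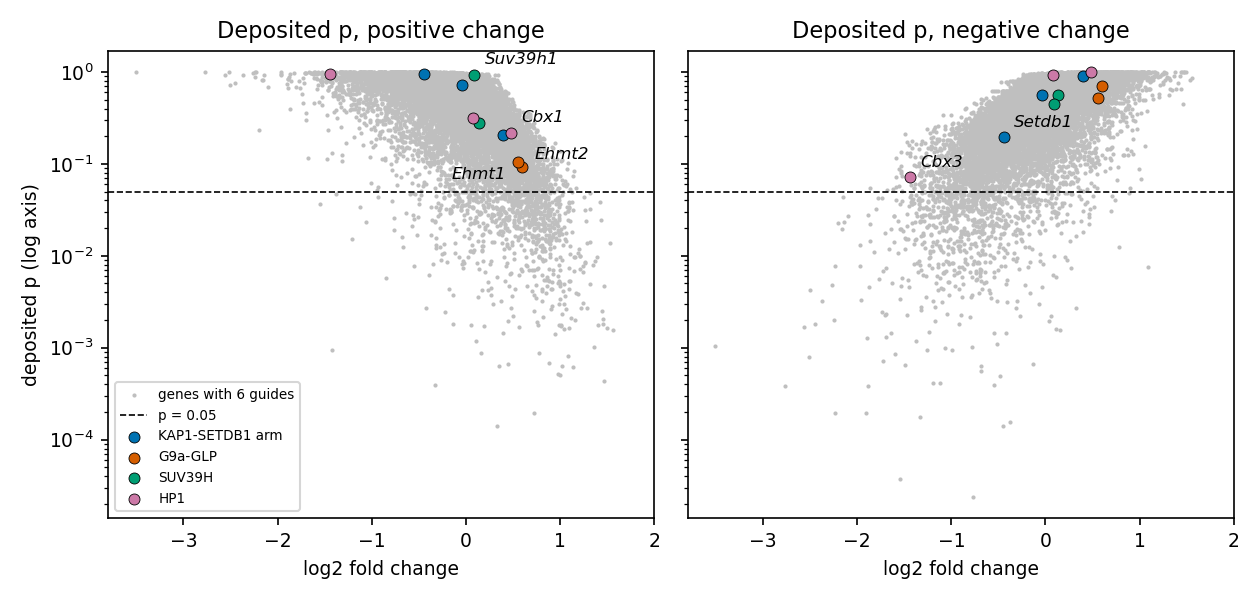
Deposited p (y axis, log scale) for positive change on the left and negative change on the right against log2 fold change (x axis), from the authors' deposited table. Grey points are all genes that have 6 guides, coloured points the 10 genes by role (Suv39h2 has 5 guides). A dashed line marks 0.05. All 10 genes lie above the line in both panels, with Ehmt2 at 0.0917 and Cbx3 at 0.0711 the nearest to it.

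Over the 59 guides against the 10 genes, 24 were up and 20 down, which is 40.7% and 33.9%, beside 37.4% and 38.0% over all genes. Guides against 1 gene share their target and are no replicates. By role the shares were spread more widely, which was not tested. Of 12 guides against Ehmt1 and Ehmt2, 10 were up, while of 18 against the KAP1 and SETDB1 arm 5 were up and 8 down. Of 11 guides against the SUV39H genes 3 were up and 4 down, and the 18 against the HP1 genes were split evenly, with 6 up and 6 down. By median log2 fold change the pair of G9a and GLP stood at 0.58, the SUV39H genes at 0.11, the HP1 genes at 0.077 and the KAP1 and SETDB1 arm at -0.039.

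The wider pathway was described by 4 lists with 35 genes, all found in the authors' deposited table, Fam208a, a HUSH gene, under the symbol D14Abb1e. Of these 35, 0 had an unadjusted p under 0.05 for positive change and 2 for negative change in the authors' deposited table, where the shares over all genes were those given above. They are Mphosph8, a reader of H3K9 methylation in the HUSH complex, and Kdm4b, a demethylase of H3K9. Their median log2 fold change was -0.067, and 13 of 35 were above 0.

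Partners and readers of the machinery, 15 genes, had a median of -0.24, with 5 above 0. Lowest in this list was Mphosph8, which the authors' deposited table puts at -1.08, with 5 of 6 guides down, p = 0.0231 for negative change and a false discovery rate of 0.947, so it was not called. The highest was Zfp644, a zinc finger partner of G9a and GLP, for which the authors' deposited table gives 0.52, p = 0.142 and 4 of 6 guides up.

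The genes listed as H3K9 demethylases had a median of 0.034 over 11 genes, of which 6 were above 0. Whether each of them removes this mark in these cells was not tested. Kdm4b stood lowest, and the authors' deposited table puts it at -1.03, with 5 of 6 guides down, p = 0.0143 for negative change and a false discovery rate of 0.896. The highest was Kdm7a, for which the authors' deposited table gives 0.58, p = 0.0772 and 3 of 5 guides up. Genes listed as demethylases and genes for the enzymes that write the mark thus both had values on either side of 0.

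Further SET and PR-SET genes reported as methyltransferases numbered 4, all below 0, with a median of -0.32. They ran from Mecom at -0.49 to Setdb2 at -0.13 in the authors' deposited table, and the lowest p for negative change among them was 0.14. The other chromobox genes, which encode Polycomb readers of a different histone mark, had a median of -0.018 over 5 genes. In the authors' deposited table their values lay between -0.16 for Cbx8 and 0.14 for Cbx2. All 5 lay above Cbx3, as did 20205 of all 20380 genes. No difference between these lists and the 10 genes was tested.

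**Figure D4:**
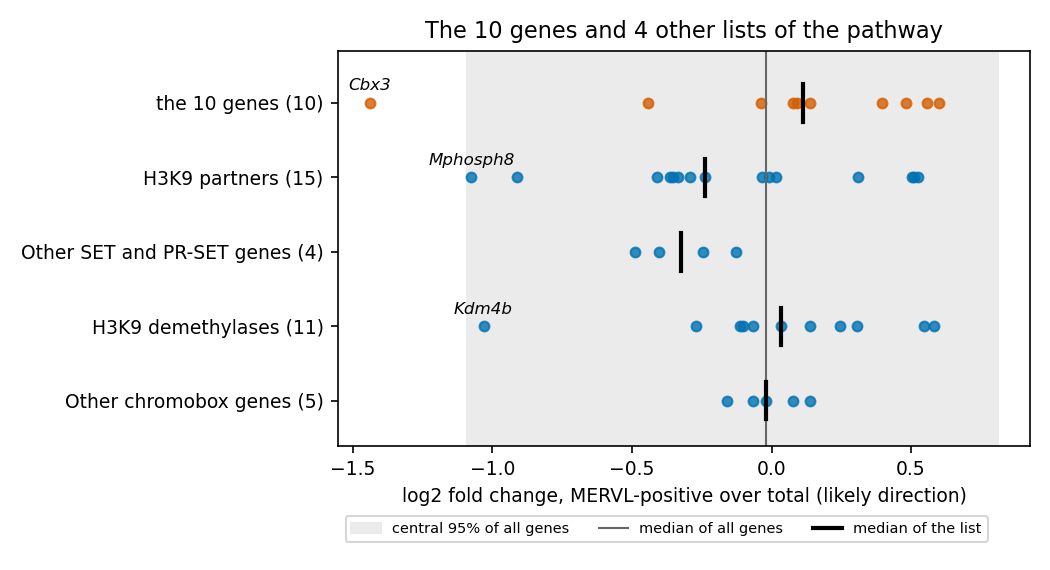
Log2 fold change (x axis) of the 10 genes and of the 4 other lists of the pathway (y axis, number of genes in brackets), from the authors' deposited table. Each point is 1 gene, the black bar is the median of the list and the grey band holds the central 95% of all genes. The list medians run from -0.32 to 0.11, and Cbx3, at -1.44, is the single point outside the band.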

How the data were processed

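Guide abundance was compared by the authors between 2 libraries of MERVL-positive and 2 of total cells. Per the submitters' processing notes, MAGeCK and the mm10 build were used. Its version, settings and normalization were not given in the sources used here. Per the file headers, each entry has, in each direction, a deposited score, p-value, false discovery rate, rank and number of guides past a guide threshold, and 1 log2 fold change deposited in 2 identical columns. No test was computed here, and deposited p-values were taken as given, with a threshold of 0.05. The design also foresaw guide counts, which did not apply.

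By their names, 20380 of the 22510 entries are genes, 1132 are microRNAs and 998 are single non-targeting guides. Medians, percentiles and counts were computed over genes with Python 3.11.15 and pandas 2.3.3. The adjustment step and a percentile function were checked on simulated data. The percentiles reported here were computed from ranks in pandas, which were not part of this check. Positions are those of RefSeq for GRCm38.p6, the assembly of mm10, in which all 10 genes matched by symbol. The genes and lists were chosen with earlier results of these data known. All 10 genes are named, and of each other list those with an unadjusted p under 0.05 and the highest and lowest. The sets of genes with the nearest fold changes, up to 100 on each side with the same number of guides, were added after the values were seen. Classes by number of guides up or down were not in the design and match guide counts of the 10 genes, so their shares test nothing. Zero point, threshold, comparison set and measure of direction were varied. Depth is unknown, and no interval could be given without values per library.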

Additional observations from a re-analysis of the deposited data

How the results depend on the processing

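No paired analysis was possible because the authors' deposited table has no value per library. For the same reason no edgeR or DESeq2 fit and no fit without single libraries was run. The count of genes past a false discovery rate of 0.05 was 0 in both directions, also after Benjamini-Hochberg adjustment over genes only, where the lowest values were 0.988 and 0.97. At a p threshold of 0.10 the count became 1 in each direction, and at 0.01 it was 0. The median log2 fold change of the 10 genes was 0.13 relative to the median of all genes, 0.095 relative to the non-targeting guides, 0.090 over the 9 genes with 6 guides and between 0.090 and 0.14 with each gene left out in turn. With the other group as numerator it is -0.11, and 3 genes lie above 0. The median percentile was 62.8 by log2 fold change, 70.0 by the rank for positive change and 57.2 by that for negative change. Suv39h1 changed direction, with a balance of -1 guide and with a p for negative change that differs from the p for positive change by -0.48. Suv39h2 had a balance of 0 guides. Cbx3 stood at percentile 0.856 of all genes and 0.556 of those with 6 guides. The cause of these changes was not tested.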
